A study of Saccharomyces cerevisiae with 6 samples.

Results

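The genes described here encode mitochondrial proteins of *S. cerevisiae* F12 that oxidize NADH or D-lactate, or that form or oxidize an electron transfer flavoprotein. They were taken as the rows of the deposited table that carry the systematic names of *NDE1*, *NDE2*, *NDI1*, *CIR1*, *CIR2*, *AIM45*, *DLD1* and *MCR1*. All 8 were found, among 5657 genes in 5705 rows. F12 is an engineered strain of industrial origin, made to produce ethanol from plant biomass, and its cultures were started from a single colony. Cells were sampled after 4 h of fermentation in YNB medium that held ammonium sulfate (7.5 g/L) and glucose (20 g/L), either with 40% (w/w) insoluble solids (IS), for which glass beads were used, or without them. Total RNA of 3 samples per condition was hybridized to Affymetrix yeast arrays. The study calls these independent RNA replicates, and whether each came from its own culture is not given in the sources used here.

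*S. cerevisiae* has no proton-pumping complex I. Its mitochondria instead oxidize NADH with single-chain flavoproteins of the inner membrane, which hand electrons to ubiquinone without moving protons. The inner membrane is closed to NADH, so the cytosolic and the matrix pools are served by different enzymes. Other flavoproteins deliver electrons to ubiquinone or directly to cytochrome c, from which they reach oxygen through the later complexes of the chain. In cells that ferment glucose, most NADH of glycolysis is reoxidized when acetaldehyde is reduced to ethanol, and many genes of respiration are kept low by glucose repression.

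The arrays were run to ask how gene expression differs with and without IS, which was 1 of several effects of IS that the study examined. The deposited table gives that contrast as the authors' own comparison, which was not used here, and no values per array were analysed. The 1 column left is the mean log2 signal of each probe set over the arrays. It pools both conditions, so the level of a gene with IS or without IS cannot be read from it, and no gene is described as higher or lower in either condition. The heading of the column, AveExpr, is the name that limma software gives to the mean log2 value over all arrays. The column was therefore read as a mean over the arrays of both conditions, 3 each. Without values per array this reading could not be checked, and no SD comes with the mean. Probe sets also differ in how well they bind their targets. For that reason the values of different genes were not ordered as levels of expression.

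*NDE1* (YMR145C) and *NDE2* (YDL085W) encode the external NADH dehydrogenases, whose active sites face the intermembrane space and oxidize cytosolic NADH. The authors' mean log2 signal was 8.60 for *NDE1*. For *NDE2* the authors' mean was 6.81, while the values of the whole table began at 6.20. *NDI1* (YML120C) encodes the internal NADH dehydrogenase, which oxidizes NADH of the matrix, as formed by the TCA cycle. Its authors' mean log2 signal was 8.46.

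The electron transfer flavoprotein is a soluble matrix protein of an alpha and a beta subunit. In human mitochondria it collects electrons from acyl-CoA dehydrogenases and passes them on to a membrane-bound ubiquinone oxidoreductase. *AIM45* (YPR004C) encodes the yeast counterpart of the alpha subunit, and its authors' mean log2 signal was 10.84. *CIR1* (YGR207C) encodes the counterpart of the beta subunit, with an authors' mean log2 signal of 9.81. *CIR2* (YOR356W) encodes the counterpart of the ubiquinone oxidoreductase, and the authors' mean was 8.19 on the same log2 scale. Yeast breaks down fatty acids in peroxisomes and not in mitochondria, so the human role cannot simply be carried over to these 3 genes.

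*DLD1* (YDL174C) encodes the D-lactate dehydrogenase of the inner membrane, which turns D-lactate into pyruvate and gives the electrons to cytochrome c. The authors' mean log2 signal was 11.04. *MCR1* (YKL150W) encodes the mitochondrial NADH-cytochrome b5 reductase, found at the outer membrane and in the intermembrane space, which is not a ubiquinone reductase. Its authors' mean log2 signal was 10.57. The members together thus spanned 6.81 to 11.04, with a median of 9.21. Over all rows the authors' means reached from 6.20 to 14.14, with a median of 8.79. These ranges describe probe sets and were not tested.

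Each of the 8 genes had 1 probe set, and 0 of the 8 probe set names carried an ending that Affymetrix uses for probe sets shared by several transcripts. All 8 systematic names were found in the RefSeq gene table of *S. cerevisiae*, under the symbols used here. By that annotation, 0 of the 8 genes overlapped another annotated gene. No members were next to each other along a chromosome. Probes of this array follow a reference genome, and how far the sequence of F12 departs from it at these genes was not analysed here.

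A list of 9 further genes was drawn up around other routes by which electrons enter the chain, and all 9 had a row. It holds *SDH1*, *SDH2*, *SDH3* and *SDH4* of succinate dehydrogenase, *GUT2* of the glycerol phosphate shuttle, *CYB2*, which encodes the L-lactate cytochrome c reductase, *PUT1* of proline oxidation, and *DLD2* and *DLD3*, named after D-lactate dehydrogenase. The product of *DLD3* is cytosolic, so it is not itself part of the chain. The authors' mean log2 signals of the 9 genes lay between 7.61 for *CYB2* and 12.17 for *DLD3*, with a median of 8.66. Apart from *DLD3*, the highest value was 9.39, for *DLD2*. The values of the 9 genes overlapped the range of the members, and no difference between both lists was tested.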

How the data were processed

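Total RNA from 3 samples with and 3 without IS was hybridized to GeneChip Yeast Genome arrays. The authors normalized the scanner data by RMA (Affymetrix Expression Console), and both conditions were then compared by them in Babelomics, which runs limma, and in Piano. Versions, and how the rows of the table were chosen, are not given in the sources used here. A single column of the authors' deposited table was used, which was read from its heading as the mean log2 signal over the arrays. Another 5 columns hold the authors' comparison (a log2 difference, a moderated t, a p, an adjusted p and a log-odds value) and were left out. A further 3 columns had no heading and were not read. A test with limma had been planned for values per array. The table used here holds none, so no test was run and no precision can be given. What 3 arrays per condition can resolve was not assessed.

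Rows were matched by systematic name, and those of 5692 of the 5705 rows were found in the RefSeq annotation of the R64 reference assembly, used for symbols and neighbouring genes only. The genes named are all members and the 9 further genes listed. Members and lists were chosen with earlier results of these data known. Alternatives were the brightest probe set of each gene and matching through the gene symbol. Python 3.11.15 and pandas 2.3.3 were used.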

Additional observations from a re-analysis of the deposited data

How the results depend on the processing

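Taking the brightest probe set of each gene, or matching rows through the RefSeq symbol, gave the same 8 genes. All 17 values recomputed under these 2 alternatives equalled those reported. This equality was fixed in advance, since each gene had only 1 probe set and each symbol led back to its own systematic name. It therefore does not show how robust the values are. The planned comparison of both conditions and its alternatives were not run, because no values per array were analysed. The planned alignments of the proteins were not run either, because no protein sequences were used here. No paired analysis was possible, because the values used are means over all arrays and no pairing of samples across conditions is given. Without values per array, signal over background could not be judged.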
